A study of Homo sapiens with 4 samples.

Results

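The promoters of 58 genes of the cell cycle and of DNA replication were set beside the new MBD-seq peaks of HEK293 cells treated with the wild type Ab-3A3L construct. The genes were selected from 20163 protein-coding genes by symbol and not by a measured value, but with earlier results of these data known. They fell into 21 genes of DNA replication, 20 genes of the G1 phase and its passage into S phase (G1/S) and 17 genes of mitosis and its checkpoints (G2/M). A promoter was the start site of the canonical transcript in GENCODE release 44 on hg19 with 1000 bp on either side, and had a new peak if at least 1 bp of it was covered. Of the 58 promoters, 34 carried a new peak (58.6%, with a 95% exact binomial interval from 44.9% to 71.4%), against 8386 of 20163 coding promoters, or 41.6%. Promoters rich in CpGs had a new peak more often, and at the shares of other coding promoters of like CpG number 29.4 of the 58 would have carried one. With promoters sorted by the observed/expected CpG ratio instead, that number was 33.6, so the count of 34 stood above the first of these values and next to the second.

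HEK293 is a human embryonic kidney cell line that was transformed with adenoviral DNA. MBD-seq captures sonicated genomic DNA through the domain of MBD2 that binds methylated CpGs, and sequenced fragments therefore accumulate at methylated sites. The series holds 1 library each of untreated cells and of cells with Ab-3A3L (WT), Ab-3A3L (K844E) or Ab-3A3L (R887E), in which the fused catalytic parts of DNMT3A and DNMT3L are linked to an antibody fragment that binds the SunTag. The treated cells had received 6 µg of dCas9-SunTag plasmid with 10 repeats, 3 µg of Ab-3A3L plasmid and 500 ng of plasmid for an sgRNA against the CpG island of ISG15, by transient transfection, and were sorted 3 days later for cells that carried all plasmids. Only the list of new peaks of the WT library was analysed here, and its 12864 peaks are those that the authors' peak calling listed as new relative to untreated cells. At the promoters of the 58 genes, a listed peak therefore stands for methylated DNA gained over untreated cells at a site the sgRNA was not designed for. A promoter without a listed peak may have had any level of methylation in either library. As each condition had 1 library, the spread between replicates is unknown, no difference was tested, and all counts, shares and medians are descriptions of this library.

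The cell cycle is driven by kinases (CDKs) that are switched on by cyclins and held back by CDK inhibitors. In G1, cyclin D and cyclin E kinases release the E2F transcription factors from the retinoblastoma protein, and E2F then turns on genes for the S phase. Replication origins are marked by the origin recognition complex (ORC), loaded with the MCM helicase by CDC6 and CDT1, and copied with the help of the clamp PCNA and its loader RFC. Entry into mitosis depends on cyclin B and CDK1, and the spindle checkpoint delays chromosome separation until all chromosomes are attached. The promoters of these genes in dividing cells are mostly CpG islands without methylation.

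Promoter sequence is shown for the genes with the highest fold enrichment among the replication and the G1/S genes. It is also shown for CDT1 and MCM5, which had no peak and held 181 and 128 CpGs in the promoter. MCM7, also without a peak and with 179 CpGs, is not shown. CpGs, the substrate of DNMT3A, are in capitals, and all sequences are read from the GRCh37 reference in the direction of the gene. The stretches of PCNA, CCNE1 and CDT1 are the 200 bases just before the start site, and that of MCM5 runs from 206 to 7 bases before it, since the bases closer to the start belong to an annotated exon. For PCNA the 151 bases around the summit of its peak, in an intron, are given as well. The stretch of PCNA (chr20:5100605-5100804, minus strand) lay wholly inside a new peak, and that of CCNE1 (chr19:30302698-30302897, plus strand) with 151 of its bases. Those of CDT1 (chr16:88869997-88870196, plus strand) and MCM5 (chr22:35795927-35796126, plus strand) lay outside any new peak, although the CDT1 stretch held 37 CpGs, against 26 in PCNA, 32 in CCNE1 and 21 in MCM5. The summit stretch of PCNA (chr20:5100068-5100218) held 16.
PCNA, upstream: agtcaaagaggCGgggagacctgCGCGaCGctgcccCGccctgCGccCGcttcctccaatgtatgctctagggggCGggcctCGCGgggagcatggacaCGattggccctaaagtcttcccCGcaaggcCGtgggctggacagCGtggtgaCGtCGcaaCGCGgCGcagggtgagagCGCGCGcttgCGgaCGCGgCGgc
PCNA, summit: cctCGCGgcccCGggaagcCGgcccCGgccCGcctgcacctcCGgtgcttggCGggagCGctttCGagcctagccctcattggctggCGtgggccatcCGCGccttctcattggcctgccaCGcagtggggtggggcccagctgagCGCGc
CCNE1, upstream: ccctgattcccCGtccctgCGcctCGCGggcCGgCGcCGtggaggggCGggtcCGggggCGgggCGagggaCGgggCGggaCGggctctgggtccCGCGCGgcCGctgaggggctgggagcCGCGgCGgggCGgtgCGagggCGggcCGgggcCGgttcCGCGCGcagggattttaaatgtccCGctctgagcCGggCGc
CDT1, upstream: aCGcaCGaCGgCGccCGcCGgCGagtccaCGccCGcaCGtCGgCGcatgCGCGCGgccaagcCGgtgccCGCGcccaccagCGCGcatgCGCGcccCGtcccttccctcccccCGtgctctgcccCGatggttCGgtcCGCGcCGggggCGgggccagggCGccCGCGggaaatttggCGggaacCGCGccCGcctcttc
MCM5, upstream: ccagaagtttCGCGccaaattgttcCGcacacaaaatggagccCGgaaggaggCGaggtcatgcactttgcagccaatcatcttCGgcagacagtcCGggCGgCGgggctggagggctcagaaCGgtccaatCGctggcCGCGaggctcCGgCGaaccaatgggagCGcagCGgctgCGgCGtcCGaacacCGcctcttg

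The share of promoters with a listed new peak rose with the number of CpGs. This share counts peaks of captured fragments and not the methylation of each CpG, which the list does not give. Whether the detection of a peak itself depended on the number of CpGs was not tested. With all coding promoters sorted into 10 classes of about equal size, the share with a new peak was 24.0% at 64 to 82 CpGs, 40.8% at 83 to 96, 54.6% at 97 to 110, 65.1% at 111 to 125 and 78.4% at 144 to 169. The 58 promoters held between 59 and 236 CpGs, with a median of 105.5 against 96 over all coding promoters. The 34 with a new peak had a median of 119.5 CpGs and the 24 without one a median of 80.5. In the class of 111 to 125 CpGs, 10 of 10 of the genes had a peak, and in that of 144 to 169 CpGs, 8 of 8. The genes did not follow a steady rise, since 3 of 4 had a peak at 126 to 143 CpGs and 2 of 4 at 170 to 339, where 70.3% and 78.6% of all coding promoters had one. In the class of 64 to 82 CpGs, 3 of 15 had one. Of the promoters with 100 CpGs or more, a limit chosen after the values were seen, 27 of 31 of the genes had a peak (87.1%, 70.2% to 96.4%), against 70.5% of all coding promoters of that kind. Under 100 CpGs, 7 of 27 of the genes had one, or 25.9% (11.1% to 46.3%), against 15.8%. The 15.8% is not matched in CpG number, since it includes promoters with as few as 0 CpGs, while the genes held at least 59. By class, 0 of 2 of the genes had a peak at 38 to 63 CpGs against 6.27%. At 64 to 82 CpGs it was 3 of 15 against 24.0%, and at 83 to 96 CpGs 4 of 9 against 40.8%. The plot of shares by CpG number sets each gene beside the share of its class.

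**Figure D1:**
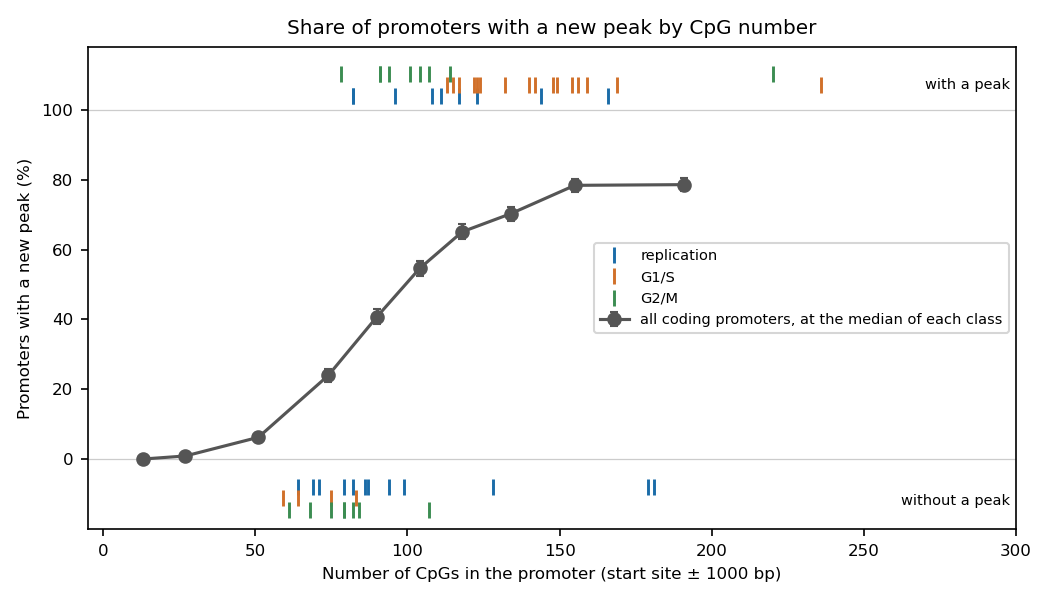
Share of coding promoters with a new peak (y axis, %) against the number of CpGs in the promoter (x axis), as grey points at the median of each of 10 classes with 95% exact binomial intervals; coloured ticks give the 58 genes by group, above 100% for genes with a new peak and below 0% for genes without one. All G1/S genes with 113 CpGs or more lie above 100%, while MCM5, MCM7 and CDT1 are the 3 blue ticks farthest to the right below 0%.

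The 3 groups were hit unequally, and so were their CpG numbers. A new peak was found at 16 of 20 G1/S promoters (80.0%, 56.3% to 94.3%), at 9 of 17 G2/M promoters (52.9%, 27.8% to 77.0%) and at 9 of 21 replication promoters (42.9%, 21.8% to 66.0%). The median number of CpGs was 128 in the G1/S group, 91 in the G2/M group and 96 in the replication group. At the shares of their CpG classes, 12.4 of the G1/S, 6.76 of the G2/M and 10.2 of the replication promoters would have had a peak. The counts were above that value for G1/S and G2/M and below it for replication. These values rest on classes by CpG number. With the observed/expected CpG ratio the value for all 58 genes was 33.6 in place of 29.4, and no values by group are given for that ratio. For G2/M this rested on peaks of low fold, since 3 of 17 promoters (17.6%) had a peak of at least the median fold of the list, against 25.6% of all coding promoters, and 1 of 17 (5.88%) had one with a −log10 q of at least 10, against 24.6%. The intervals of the 3 groups overlap, and no difference between groups was tested. Fold enrichment in the list is the number of fragments at the summit over a local background. The highest fold at each promoter had a median of 9.62 in the G1/S group, 7.93 in the replication group and 7.06 in the G2/M group. Over all 34 promoters it was 8.06, with a range from 3.24 to 14.9, against 8.26 over the 8386 coding promoters with a peak.

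**Figure D2:**
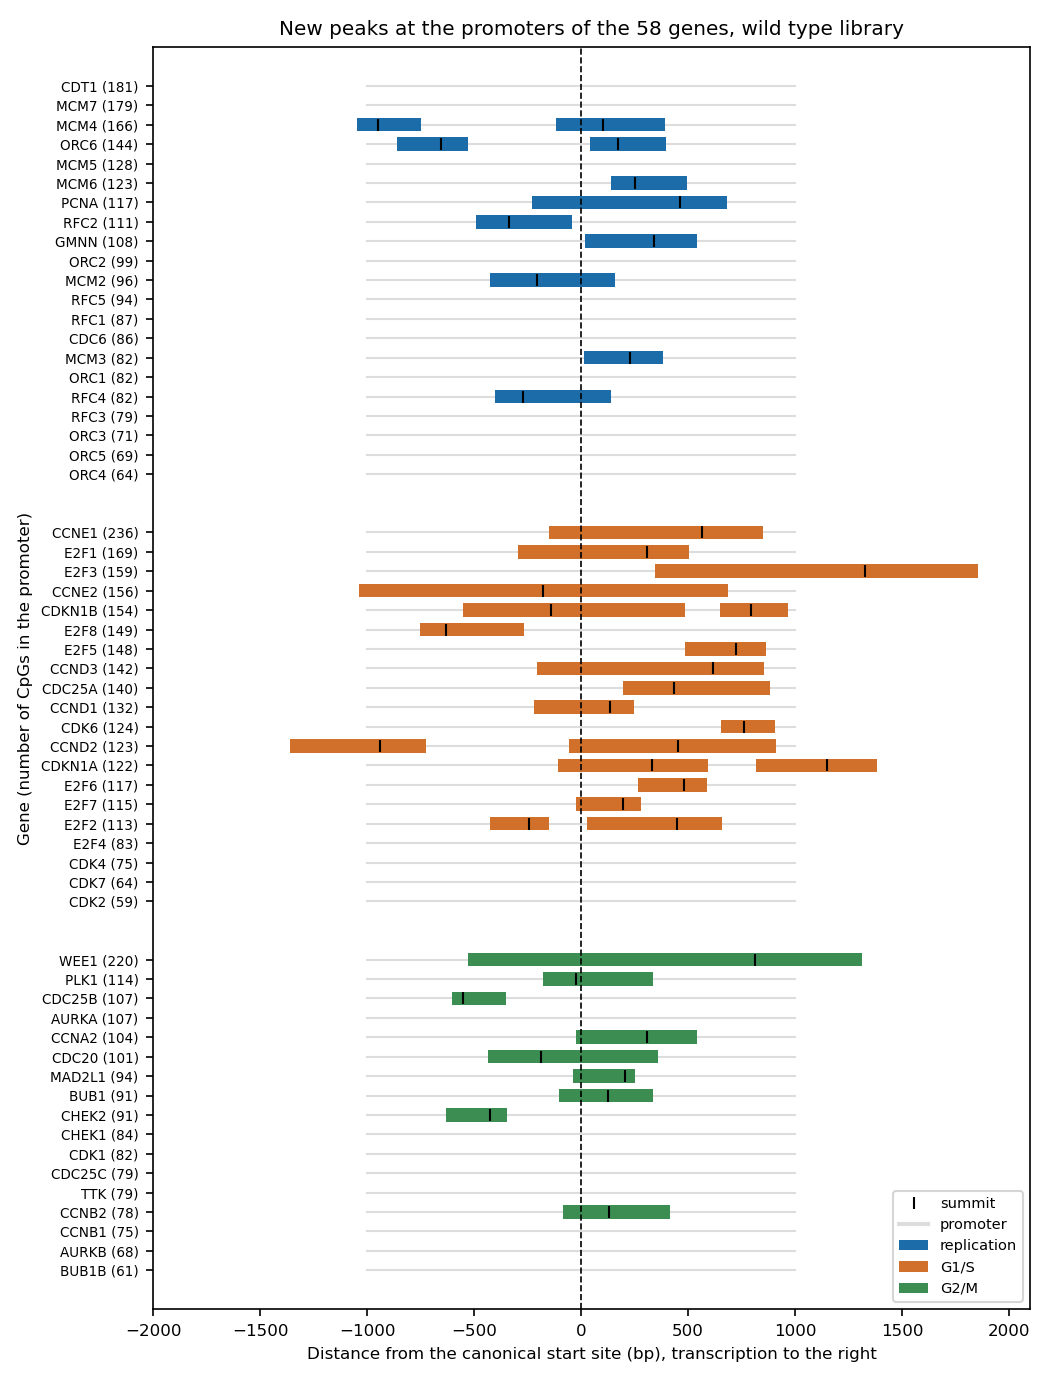
New peaks (coloured bars) and their summits (black ticks) around the start sites of the 58 genes, with distance in bp on the x axis and 1 gene per row, sorted within each group by the number of CpGs in the promoter, given in parentheses; grey lines mark the promoters. All G1/S rows with 113 CpGs or more have a peak, the replication rows of CDT1, MCM7 and MCM5 have none, and 24 genes have none in all.

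From the fold and the p-value of a peak, the number of fragments at its summit and the background rate can be recovered as described under processing. At the 34 promoters the summits held 9 to 27 fragments with a median of 15, against 17 over all coding promoters with a peak. The smallest rate recovered in the list, 0.611 fragments, was taken as the genome-wide rate. It was the background at 15 of the 34, or 44.1%, against 34.8% of all coding promoters with a peak. At such counts the 95% Poisson interval is wide, and of the 561 pairs among the 34 genes, the intervals of 1 pair, MAD2L1 and CDC25B, did not overlap. The share of such pairs over all coding promoters is not given here, and overlapping intervals do not show that the numbers of fragments are alike. These intervals are of fragments and not of the fold, which also depends on the background rate, and the pair runs against the order by fold, since CDC25B had more fragments and the lower fold.

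Among the G1/S genes, cyclins D and E, the partners of CDK4, CDK6 and CDK2, had a new peak at 5 of 5 promoters, with 123 to 236 CpGs, where the CpG classes give 3.62. The highest fold of all 58 genes was at CCNE1, which encodes cyclin E1, where a peak on chromosome 19 from 30302747 to 30303747 had a fold of 14.9 at a −log10 q of 24.7. Its summit held 23 fragments (95% Poisson interval 14.6 to 34.5) over the genome-wide rate and lay 565 bp downstream of the start, in coding exon 2. The fold is above that of 93.9% of the coding promoters with a peak. CCNE2, which encodes cyclin E2, had a peak on chromosome 8 from 95906745 to 95908465 with a fold of 13.0, a −log10 q of 20.4 and 20 fragments (12.2 to 30.9). It was 1721 bp wide, held the start site and 147 of the 156 CpGs of the promoter, and had its summit 176 bp upstream of the start.

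Among the D-type cyclins, CCND2 had a pair of peaks. The higher one, on chromosome 12 from 4382871 to 4383837, had a fold of 12.5, a −log10 q of 19.4 and 20 fragments (12.2 to 30.9) with its summit 452 bp downstream in coding exon 1, and the other one had its summit 938 bp upstream with a fold of 12.3. CCND3 had a fold of 11.8 from 22 fragments. CCND1 stood at the other end of the group, with the lowest fold of the G1/S genes at 3.99 at a −log10 q of 6.40. Its peak on chromosome 11 from 69455705 to 69456171 covered the start site and held 24 fragments (15.4 to 35.7), more than the CCNE1 summit, over a background rate of 5.27. The low fold of CCND1 thus went with a high background and not with a low number of fragments. That the background comes from the untreated library is an inference from the values, and whether CCND1 was already partly methylated before treatment was not tested.

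Of the kinases of this group, CDK6 had a peak with a fold of 6.83 from 10 fragments (4.80 to 18.4), 763 bp downstream of the start. CDK2, CDK4 and the CDK-activating kinase CDK7 had none, with 59, 75 and 64 CpGs in their promoters. The nearest new peak was 34634 bp from the CDK2 start, 2780 bp from that of CDK4 and 31130 bp from that of CDK7. PMEL, which starts 788 bp upstream of CDK2 on the other strand, had no new peak either, in a promoter window that overlaps that of CDK2. CDC25A, the phosphatase that activates CDK2, had a fold of 9.93 from 15 fragments. The CDK inhibitors CDKN1A (p21) and CDKN1B (p27), which stop the cycle, each had a pair of peaks, the higher ones with folds of 10.9 and 10.6. The promoter of an inhibitor and those of the cyclins it acts against were thus both in the list.

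Of the E2F factors, 7 of 8 promoters had a new peak (87.5%, 47.3% to 99.7%), where the CpG classes give 5.49. The activators E2F1, E2F2 and E2F3 had folds of 8.06, 9.31 and 11.2, from 13, 14 and 17 fragments. For E2F3 the peak ran from 347 to 1853 bp downstream of the start, and its summit at 1325 bp lay outside the promoter. E2F5 and E2F6, which act as repressors, had folds of 8.27 and 7.99, and the atypical repressor E2F7 had 8.69. E2F8, the other atypical repressor, had the second lowest fold of the group at 4.61, with a −log10 q of 6.36 and 19 fragments (11.4 to 29.7) over a background rate of 3.34. Its peak on chromosome 11 from 19262759 to 19263247 had its summit 631 bp upstream. E2F4, a repressor in resting cells, was the only factor of the family without a new peak, and its 83 CpGs were the fewest in the family. Across the G1/S group, the 16 promoters with a peak held at least 113 CpGs and the 4 without one at most 83.

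Among the replication genes, a new peak was found at 4 of 6 MCM promoters, 1 of 6 ORC promoters, 2 of 5 RFC promoters, that of PCNA and 1 of the 3 licensing factors. At the shares of their CpG classes, 3.57 of the MCM and 2.29 of the ORC promoters would have had a peak. PCNA, the sliding clamp of the replicative polymerases, had the highest fold of the group at 12.4, with a −log10 q of 18.9. Its peak on chromosome 20 from 5099925 to 5100833 held 19 fragments (11.4 to 29.7) over the genome-wide rate, with the summit 461 bp downstream in an intron.

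The MCM genes encode the 6 subunits of the replicative helicase. MCM4 had a fold of 11.8 at a −log10 q of 18.0 from 19 fragments (11.4 to 29.7), in a peak on chromosome 8 from 48873384 to 48873893 with its summit 103 bp downstream in an intron. A further MCM4 peak with a fold of 7.56 had its summit 949 bp upstream. It spans the start of PRKDC, which lies 805 bp upstream on the other strand, so the same peak counts for both promoters. MCM3 had a fold of 11.2 at a −log10 q of 16.2 from 17 fragments (9.90 to 27.2), in a peak on chromosome 6 from 52149159 to 52149525 with its summit 227 bp downstream. MCM2 had a fold of 10.3 from 16 fragments. MCM6 had the lowest fold of the replication genes at 5.75, with a −log10 q of 5.54 and 10 fragments (4.80 to 18.4), on chromosome 2 from 136633521 to 136633874. Its interval overlaps that of MCM4. MCM5 and MCM7 had no new peak, with 128 and 179 CpGs, in classes where 70.3% and 78.6% of coding promoters had one. The nearest new peaks were 18750 bp and 12055 bp away. AP4M1, which starts 246 bp upstream of MCM7 on the other strand, had no new peak either. Its promoter window overlaps that of MCM7, so this is not a separate observation. Within the MCM family the CpG number did not order the genes. The 4 promoters with a peak had a median of 109.5 CpGs, and those of MCM5 and MCM7 a median of 153.5.

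Of the ORC genes, whose products mark origins, ORC6 alone had new peaks. They lay 656 bp upstream and 174 bp downstream of the start, with folds of 7.45 and 6.83. Its promoter held 144 CpGs, against 64 to 99 in ORC1 to ORC5, and it is shared with VPS35, whose start lies 481 bp upstream on the other strand and whose promoter had a new peak too. ORC1, ORC3 and ORC4 also share their promoters, with PRPF38A, RARS2 and MBD5, and none of these partners had one. The promoter windows of such partners overlap, so the same peak, or the lack of one, can count for both genes and is not a separate observation. The nearest new peak was 35686 bp from ORC1, 98798 bp from ORC2, 111232 bp from ORC3, 623526 bp from ORC4 and 120370 bp from ORC5. Of the clamp loader, RFC4 had a fold of 7.93 and RFC2 one of 7.82, with summits 274 and 336 bp upstream. RFC1, RFC3 and RFC5 had none, with 87, 79 and 94 CpGs and the nearest peaks at 160660, 467448 and 47125 bp.

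Of the licensing factors, GMNN, which encodes the CDT1 inhibitor geminin, had the second lowest fold of the replication genes at 7.08, with a −log10 q of 7.81 and 11 fragments (5.49 to 19.7). Its peak on chromosome 6 from 24775185 to 24775707 began downstream of the start. CDC6 had no new peak with 86 CpGs and the nearest peak at 28782 bp. CDT1, which loads the helicase together with CDC6, had none either, although its 181 CpGs were the most in the replication group and the third most of the 58 genes, after CCNE1 and WEE1. The nearest new peak was 17891 bp away.

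Among the G2/M genes, WEE1, the kinase that holds CDK1 inactive, had the highest fold at 13.0, with a −log10 q of 20.4 and 20 fragments (12.2 to 30.9). Its peak was the widest of the 34 highest peaks at 1843 bp, held 192 of the 220 CpGs of the promoter and had its summit 811 bp downstream in coding exon 1. CCNA2 (cyclin A) had a fold of 8.07 at a −log10 q of 9.61 from 12 fragments (6.20 to 21.0), on chromosome 4 from 122744498 to 122745061. CCNB2 had a fold of 7.45 at a −log10 q of 8.38 from 11 fragments (5.49 to 19.7), on chromosome 15 from 59397261 to 59397759. Its summit was 131 bp downstream in coding exon 1. CCNB1, the other mitotic cyclin of the list, had no new peak, nor had its partner CDK1, with 75 and 82 CpGs and the nearest peaks at 22276 and 44656 bp. Of the phosphatases that activate CDK1, CDC25C had none, with 79 CpGs and the nearest peak at 20678 bp.

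CDC25B had the lowest fold of all 34 promoters at 3.24, with a −log10 q of 5.12, and at the same time the most fragments, 27 (17.8 to 39.3), over a background rate of 7.63. Its peak of 253 bp on chromosome 20 from 3776355 to 3776607 had its summit 551 bp upstream of the start. Of the mitotic kinases, PLK1 had a fold of 7.08 from 11 fragments with its summit 22 bp upstream of the start. AURKA and AURKB had none, with 107 and 68 CpGs and the nearest peaks at 31988 and 11130 bp. AURKA was the only G2/M gene with 100 CpGs or more that had no peak. Its partner on the other strand, CSTF1, had none either, in a promoter window that overlaps that of AURKA.

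Of the spindle checkpoint genes, CDC20, the activator of the anaphase promoting complex, had a fold of 7.06 from 13 fragments. MAD2L1 had 6.21 from 9 fragments (4.12 to 17.1), the fewest of all 34. BUB1 had the second lowest fold of the group at 5.70, with a −log10 q of 5.46 and 10 fragments (4.80 to 18.4), in a peak on chromosome 2 from 111435303 to 111435743. BUB1B and TTK had none, with 61 and 79 CpGs and the nearest peaks at 52096 and 56784 bp. Of the DNA damage checkpoint kinases, CHEK2 had a fold of 5.86, with its summit 425 bp upstream. HSCB starts 219 bp upstream on the other strand, and its promoter window overlaps that of CHEK2, so the same peak counts for both. CHEK1 had none, with 84 CpGs and the nearest peak at 55346 bp. The G2/M peaks other than that of WEE1 had folds from 3.24 to 8.07, and 3 of 17 promoters in this group had a peak of at least the median fold of the list.

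A peak of at least the median fold of the list, 7.45, was present at 23 of the 58 promoters, or 39.7%, against 25.6% of all coding promoters. At the shares of the CpG classes for such peaks, 18.0 of the 58 would have had one. By group, 13 of 20 G1/S, 7 of 21 replication and 3 of 17 G2/M promoters had one. The 11 genes that dropped out were CCND1, CDK6, E2F8, GMNN, MCM6, BUB1, CDC20, CDC25B, CHEK2, MAD2L1 and PLK1. Across the 34 promoters with a peak, the fold and the number of CpGs had a Pearson r of 0.525 (Spearman rho 0.449). Over all 8386 such coding promoters these were 0.0399 and 0.0483. For the number of fragments at the summit in place of the fold, r was 0.452 (rho 0.458) over the 34 promoters and 0.255 (rho 0.296) over all. The points share 1 library and its base composition, and genes are not independent replicates.

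The new peaks lay downstream of the start sites more often than upstream of them. The summit of the highest peak was downstream of the start at 23 of 34 promoters, or 67.6%, against 70.6% of all coding promoters with a peak, and its median position was 216.5 bp downstream, against 165 bp. In the G1/S group 13 of 16 summits were downstream, with a median of 442.5 bp, and in the replication and G2/M groups 5 of 9 each, with medians of 103 and 126 bp. The start site itself was inside a peak at 20 of 34 promoters, or 58.8% (40.7% to 75.4%), against 64.3%. At 200 bp downstream, 24 of the 34 promoters were inside a peak, and at 200 bp upstream, 12 of them. Of the 34 summits, 13 lay in introns, 11 upstream of the gene, 7 in coding exons and 3 in untranslated exons of the canonical transcript. Within the 2001 bp of a promoter, the peaks covered a median of 552.5 bp, against 632 bp over all coding promoters with a peak, and a median of 57 CpGs, or 52.5% of those in the promoter, with a range from 19.4% to 94.2%.

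**Figure D3:**
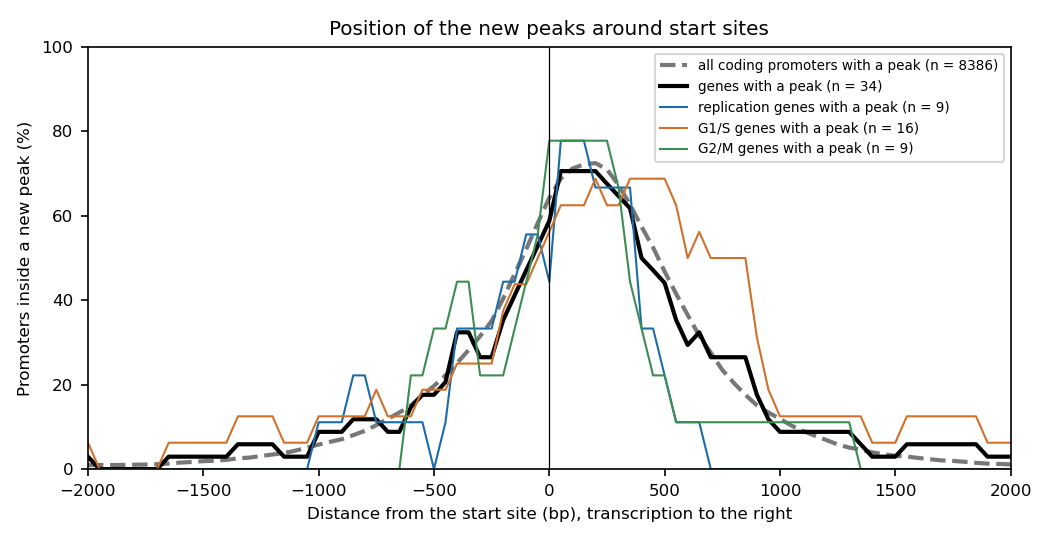
Share of promoters with a peak whose sequence is inside a new peak (y axis, %) at each distance from the start site (x axis, bp), for all 8386 coding promoters with a peak (dashed) and for the 34 genes as a whole and by group. The curve of the 34 genes follows the dashed curve and is highest downstream of the start, at 70.6% at 200 bp against 72.5%, and the G1/S curve stays at 68.8% at 500 bp.

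E2F binds sites with a CpG, so the position of such sites relative to the peaks was examined in the 250 bases before and 50 bases from the start site, on both strands. The letters searched were TTTCCCGC, TTTCGCGC, TTTGCCGC and TTTGGCGC. A match was present in 18 of the 58 promoters, or 31.0%, against 4.33% of all coding promoters, and in all 6 MCM promoters. The 18 genes had 23 places with a match, where overlapping matches count as 1 place. Of these, 14 lay in 11 genes with a new peak, and 4 of the 14, in CCND1, E2F1 and MCM2, were inside it. In the same 11 genes, 36.3% of the bases of the search window were inside a peak, and at 5 of them none were. In MCM3 and MCM6 the peak began downstream of the places, and MCM5, MCM7, CDC6, CDT1, CDK1, ORC3 and RFC3 had a match and no peak. Promoters with a match had a new peak in 49.8% of all coding genes, against 41.2% of those without, with a median of 108 CpGs. Of the 23 places only some are shown, and a further place inside a peak, in E2F1, is not among them. Those shown have 28 bases each, with the place in capitals. First come those inside a new peak, then those outside the peak of their gene, and last those of genes without one. They lie at chr3:127317248-127317275 (MCM2, plus), chr20:32274194-32274221 (E2F1, minus), chr11:69455767-69455794 (CCND1, plus), chr6:52149527-52149554 (MCM3, minus), chr2:136634084-136634111 (MCM6, minus), chr22:35795926-35795953 (MCM5, plus) and chr7:99699012-99699039 (MCM7, minus).
MCM2, inside: gaaccactTTTCGCGCGAAAcctggttg
E2F1, inside: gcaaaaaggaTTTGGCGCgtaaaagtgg
CCND1, inside: gctcccggcgTTTGGCGCccgcgccccc
MCM3, outside: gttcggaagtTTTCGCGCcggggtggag
MCM6, outside: tggtcaggTTTGGCGCGAAAtctccagc
MCM5, no peak: gccagaagTTTCGCGCCAAAttgttccg
MCM7, no peak: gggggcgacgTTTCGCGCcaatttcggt

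The motifs of late cell cycle genes were searched in the same window. The cell cycle genes homology region (CHR), searched as TTTGAA on both strands, was present in 11 of 17 G2/M promoters, or 64.7%, in 2 of 20 G1/S promoters and in none of the 21 replication promoters, against 11.6% of all coding promoters. Of the 11 G2/M promoters with it, 5 had a new peak (45.5%), against 24.1% of all coding promoters with it. These shares are not matched in CpG number, since the median was 82 CpGs in the 11 promoters and 57 in all coding promoters with a match. Of the 6 G2/M promoters without a match, 4 had a new peak (66.7%). A CCAAT box, the site of NF-Y, was present in 15 of 17 G2/M promoters, or 88.2%, against 35.9% of all coding promoters, and 9 of these 15 had a new peak, against 37.4% of all coding promoters with the box. In 13 genes with a CHR match the promoter held a median of 94 CpGs, against 130 in the 18 genes with an E2F match. The letters are a description of the sequence and were not tested as binding sites.

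A wider list of 88 further genes of the same pathways was examined in the same way. Of these, 46 had a new peak, or 52.3% (41.4% to 63.0%), against 41.6% of all coding promoters, where the shares of their CpG classes give 42.9. A peak of at least the median fold was present at 23 of the 88 (26.1%), against 25.6% of all coding promoters. One with a −log10 q of at least 10 was present at 20 (22.7%), against 24.6%. The retinoblastoma family, E2F partners and DREAM complex genes had a peak at 8 of 11 promoters (6.35 from the CpG classes), among them RB1 with a fold of 7.45 and LIN9 with 13.7, while TFDP1 had none with 218 CpGs. The replicative polymerases and primase had one at 8 of 12 (5.83 from the classes), among them POLE with 3.96 and POLD3 with 8.06. Of the origin firing factors, 7 of 13 had one (5.79 from the classes), with the highest fold of 11.2 at TICRR, and of the fork factors 6 of 9 (4.09). The other CDK inhibitors and regulators had one at 6 of 10 (5.49), among them CDKN2B with 13.0. The lowest shares were found for the anaphase promoting complex, with 6 of 15, and for kinetochore, spindle and cohesin genes, with 5 of 18, where the CpG classes give 7.81 and 7.49. The latter had a median of 87 CpGs. None of these sublists was tested against another.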

How the data were processed

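Per the study's methods, the authors aligned reads to hg19 with Bowtie2 at its default options. The submitters' processing notes also name MACS2, deepTools and FastQC, without versions. The deposited list has the MACS2 peak layout. The authors' fold is a ratio of fragments at the summit to a local background, 2 deposited columns give −log10 of the p-value or q-value, and the deposited score (−log10 q times 10, rounded down) was not used. The smallest −log10 q is 2.00. The list itself holds no total depth, so the counts behind each value are the fragments at summits.

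Fragments k and the background rate were recovered from fold = (k + 1)/(rate + 1) and the Poisson chance of exceeding k, which gave each listed −log10 p within 0.000403. That the background reflects the untreated library, and that the smallest rate is the genome-wide one, are inferences. Exact binomial and Poisson intervals are 95% intervals and cover counting error only.

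Start sites were those of the canonical transcripts of GENCODE 44 on GRCh37, the build of hg19. For 282 of 20163 genes without one, none among the 58, the gene start was used. CpG classes were 10 of about equal size by CpGs in the promoter, and the expected numbers use the shares of the other coding promoters. The genes named were all 58, with full values for the 3 highest and 2 lowest folds of each group. The members and lists were chosen with earlier results of these data known. The promoter sequence of the highest G2/M gene is not reported here. No p-value was computed. Alternatives changed the promoter width, start site, overlap, classes and peak threshold. Steps were tested on simulated data. Versions were scipy 1.17.1, pandas 2.3.3, numpy 2.4.6, matplotlib 3.10.9 and Python 3.11.15.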

Additional observations from a re-analysis of the deposited data

How the results depend on the processing

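Of 50 alternatives computed, 41 gave a value within 1.5 times the one reported. The other 9 come from a stricter list, which holds fewer peaks by construction. With only peaks of a −log10 q of at least 10, 18 of the 58 genes had a new peak (31.0%), 5 replication genes, 1 G2/M gene, 20 genes of the wider list and 4967 coding promoters (24.6%). With peaks under the median fold left out, the counts beyond the limit were 3 G2/M genes, 23 genes of the wider list and 5157 coding promoters, and the number given by the CpG classes was 18.0. With the observed/expected CpG ratio in place of the CpG number, the classes gave 33.6 of the 58 genes in place of 29.4, next to the 34 found. The start of any coding transcript added CDK4, a width of 500 bp on either side lost CDK6, and a summit inside the promoter lost E2F3. The median of 15 fragments at the summit and the single library limit every value. No paired analysis was possible because each condition has a single library.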
